A study of Mus musculus with 16 samples.

Results

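The 93 genes described here encode the proteins of the mouse cytosolic ribosome. They were chosen by symbol alone, as every row of the deposited count table named Rpl or Rps followed by a digit, with Rplp0, Rplp1, Rplp2 and Rpsa, and without the Rps6k kinases and the pseudogenes. A symbol was found for 51880 of 57186 IDs, and 55 Rpl and 38 Rps genes remained after 289 ribosomal protein pseudogenes were left out. Symbol matching also took in Rps19bp1, a protein that binds Rps19 and is no ribosomal protein, and it misses ribosomal proteins with other symbols, such as Fau and Rack1. Of the 93 genes, 87 passed the filter on low counts and were tested, 50 of the large and 37 of the small subunit.

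RNA came from the left ventricle of C57/BL6N mice in 4 groups of 4 biological replicates. These were mice with a cardiomyocyte-specific Tfeb knockout (labelled cKO-TFEB, here cKO) after transverse aortic constriction (TAC), cKO mice after sham surgery, control mice (labelled WT) after TAC, and WT mice after sham surgery. TAC is an operation that constricts the aorta so that the ventricle must pump against a raised pressure, and TFEB is a transcription factor known for lysosomal and autophagy genes. The Cre driver, age, sex and time after surgery are not stated in the labels, and whole ventricle holds fibroblasts, endothelial and immune cells besides the cardiomyocytes that lost Tfeb. Tfeb itself averaged 12.7 ± 2.34 CPM (counts in a library scaled to a common total) in cKO TAC, 10.5 ± 1.74 in cKO sham, 29.1 ± 9.77 in WT TAC and 36.5 ± 3.94 in WT sham (SD, n = 4 each). Levels below are CPM scaled by edgeR's TMM factors, which set the bulk of genes level between libraries, and each ± is an SD over 4 libraries. Totals ranged from 12946878 to 16347388 counts per library.

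A ribosome joins a small subunit, which reads the mRNA, to a large subunit, which forms the peptide bond, and each holds 1 copy of nearly every ribosomal protein. Most of these mRNAs start with a tract of pyrimidines (a TOP motif), through which mTORC1 signalling controls their translation as a group. Pressure overload of the heart is known to raise protein synthesis and ribosome production. A few ribosomal proteins have a paralog of narrow expression. Rpl3, a large subunit protein close to the peptidyl transferase centre, is largely replaced by Rpl3l in heart and skeletal muscle after birth.

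The coding sequences of Rpl3 and Rpl3l are shown because most of the results turn on this pair, and because their differences decide whether reads can be told apart. The first 120 coding bases of each, in the GENCODE annotation of GRCm38, are printed with the 31 differing bases in capitals. Rpl3 lies on chromosome 15 and Rpl3l on chromosome 17.
Rpl3: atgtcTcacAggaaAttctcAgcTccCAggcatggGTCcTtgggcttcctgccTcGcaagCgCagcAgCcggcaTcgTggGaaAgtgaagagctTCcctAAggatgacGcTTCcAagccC
Rpl3l: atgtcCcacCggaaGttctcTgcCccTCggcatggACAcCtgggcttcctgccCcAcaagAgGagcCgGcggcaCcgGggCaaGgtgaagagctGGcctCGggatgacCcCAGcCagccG
Over the whole coding sequence, 1212 bases in Rpl3 and 1224 in Rpl3l, they shared 899 of 1227 aligned columns, or 73.3%. Their longest shared run was 22 bases. No stretch of 100 bases of the Rpl3l transcript occurred in another annotated transcript, whereas 79.4% of those of Rpl3 also occurred elsewhere, so counts of Rpl3 are the less certain of the pair.

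Start sites of some members show the TOP motif, and the windows of 3 members with a long tract are given beside that of Rpl3l, which has none. They come from RefSeq (GRCm38.p6), hold 10 bases before and 20 after an annotated start, and carry in capitals a run of C and T that begins with C within 5 bases of the start and is at least 5 bases long.
Rpl27a, chr7:109519185-109519214, plus strand: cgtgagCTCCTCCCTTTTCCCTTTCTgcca
Rpl15, chr14:18270967-18270996, minus strand: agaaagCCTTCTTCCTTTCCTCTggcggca
Rps6, chr4:86857348-86857377, minus strand: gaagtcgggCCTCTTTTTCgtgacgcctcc
Rpl3l, chr17:24727816-24727845, plus strand, the first of its annotated starts: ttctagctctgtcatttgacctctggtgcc
Promoters of 300 bases were found for 68 of the 93 members but not for Rpl3. Such a run stood near the start in 31 of them (45.6%), against 21.2% of the 27025 genes in the table. The E-box CACGTG, the core of the site that TFEB is known to bind, occurred on either strand in 6 members (8.82%) and in 8.09% of all genes. The longer CLEAR palindrome, which extends the E-box at both ends, occurred in 0 of the 68 and in 0.37% of all genes. These are matches of letters in a window of the annotation, and each CLEAR match also holds a CACGTG.

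Cytosolic ribosomal protein genes were expressed high in all 4 groups, with mean shares of counts from 1.48 to 1.57%. Their counts made up 1.57 ± 0.060% of all counts in cKO TAC, 1.48 ± 0.081% in cKO sham, 1.53 ± 0.016% in WT TAC and 1.49 ± 0.333% in WT sham. In cKO their TMM-scaled CPM summed to 14454 ± 748 after TAC and 15482 ± 1145 after sham surgery. In WT the sums were 14987 ± 469 and 16000 ± 3992 CPM. With all libraries these mean sums were lower after TAC, whereas the mean shares were higher. A single library accounts for the wide WT sham spread. WT sham replicate 1 stood at 1.98%, outside the 1.23 to 1.66% of the other 15 libraries, and the remaining 3 WT sham libraries averaged 1.33 ± 0.089%. In that library 67 of the 87 tested members reached their highest value.

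The same library was high for short transcripts in general. Among 195 genes outside the family with transcripts under 600 bases, the median deviation from each gene's own mean was 0.33 (log2) in WT sham replicate 1, and it was −0.15 among 2762 genes over 4000 bases. In cKO TAC replicates 1, 2 and 4 the short genes lay low, at −0.31, −0.30 and −0.26. Summed erythrocyte markers were also highest in WT sham replicate 1, at 1248 CPM against 155 to 533 CPM elsewhere. WT sham replicate 3 held the most atrial transcripts, with 3984 CPM over the atrial markers against 78.2 to 2004 CPM elsewhere, and the atrial gene Sln was at 0 in 8 libraries. The part of blood in the results below was not tested, and that of transcript length was not tested apart from a fit with the length trend removed from each library. In that fit, added after seeing the data, Rpl3 (0.61 in cKO and 0.53 in WT) and Rpl3l (−1.06 and −0.88) kept their calls with TAC. WT sham replicate 1 enters every WT sham mean. Without it 46 of the 87 members changed the sign of their TAC estimate in WT and 52 that of cKO against WT under sham surgery, so the signs of small WT sham differences below depend on it.

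**Figure D1:**
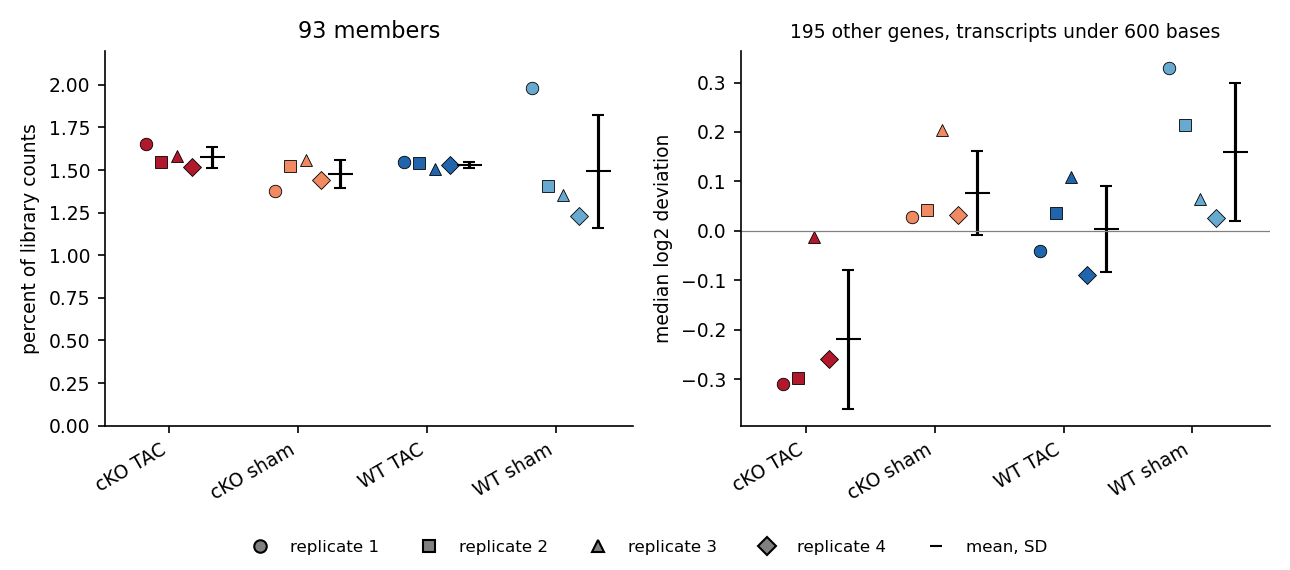
Left, percent of all counts of each library that fell on the 93 ribosomal protein genes, and right, median log2 deviation of 195 other genes with transcripts under 600 bases from their own means; points are libraries, horizontal bars are group means and whiskers are SDs (n = 4). WT sham replicate 1 is highest in both panels, at 1.98% and 0.33, and 3 of the 4 cKO TAC libraries lie between −0.31 and −0.26 on the right.

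Levels per length differed widely between members. The median over tested members was 208 CPM per kilobase of transcript. Rplp1, an acidic protein of the stalk that recruits elongation factors, was highest at 742 CPM per kilobase. It was followed by Rps2 (609), which lies at the mRNA entry, Rpl41 (587), the smallest of the family, Rps15 (531) and Rpl13 (529). At the other end 13 tested members stayed under 50 and 4 under 5 CPM per kilobase. The lowest was Rpl24, at 1.27 CPM per kilobase, and Rps10 stood at 3.86 and Rpl13a at 9.12.

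Rpl24, Rps10 and Rpl13a share 80.1%, 89.5% and 55.2% of their 100-base windows with other annotated genes. Such sharing was common, with a median of 45% over members, and 42 members shared over 50%. Sharing did not separate levels as a whole, since the 39 tested members with over 50% shared had a median of 208 CPM per kilobase, and the 8 tested members that shared none had 211. How the authors' counting treated reads with several matches is not given in the sources used here, so the level of a member with copies is uncertain.

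The median within-group SD of log2 CPM was 0.210 over members, against 0.225 over all tested genes. These sets were not matched on level, and WT sham replicate 1 enters both values. Among members the SD was lowest for Rpl4, a protein that lines the peptide exit tunnel, at 0.0781, and highest for Rpl29 at 3.23.

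Rpl3 was higher and Rpl3l lower after TAC in both genotypes, and no other member passed the test in either. The question put to this comparison was how the family responded to pressure load with and without cardiomyocyte Tfeb. In cKO hearts 2 of 87 members were called (2.3%, 1 higher and 1 lower), against 26.5% of all 15206 tested genes (14.2% higher and 12.4% lower). In WT hearts 2 were called (2.3%, 1 higher and 1 lower), against 15.8% of all genes (9.7% higher and 6.14% lower). A member was called when its edgeR p, adjusted over all tested genes, was under 0.05. By library totals without TMM scaling, which moved the median of all genes by 0.20 (log2) in cKO and 0.11 in WT, 7 members were called in cKO (6 higher, 1 lower) and 4 in WT (3 higher, 1 lower).

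Rpl3 had 303.0, 272.9, 250.5 and 257.3 CPM in the cKO TAC libraries, against 175.6, 202.7, 195.2 and 181.0 CPM in the cKO sham libraries. Every cKO TAC library lay above every cKO sham library. The means were 271 and 189 CPM, a 1.44-fold rise (log2 0.52, SE 0.10, 95% interval 0.31 to 0.74, edgeR adjusted p = 0.00135). In WT hearts Rpl3 had 223.6, 220.8, 196.7 and 228.4 CPM after TAC, against 187.4, 137.4, 161.3 and 137.2 CPM after sham surgery. The WT groups did not overlap either. Here Rpl3 rose 1.39-fold (log2 0.48, SE 0.10, 95% interval 0.26 to 0.70, edgeR adjusted p = 0.00452).

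Rpl3l moved the other way. Its values were 69.3, 108.3, 161.4 and 114.8 CPM in cKO TAC, against 246.5, 210.6, 274.6 and 233.2 CPM in cKO sham. All 4 cKO TAC libraries lay below the cKO sham libraries, and the fold was 0.470 (log2 −1.09, SE 0.24, 95% interval −1.59 to −0.59, edgeR adjusted p = 0.00362). WT TAC libraries had 125.6, 165.4, 185.5 and 154.1 CPM, against 435.2, 330.8, 211.9 and 248.1 CPM in WT sham. These groups did not overlap, and the highest value was again in WT sham replicate 1. The fold was 0.514 (log2 −0.96, SE 0.23, 95% interval −1.46 to −0.46, edgeR adjusted p = 0.0127). Without WT sham replicate 1 it was −0.74 (edgeR adjusted p = 0.0440), and without WT TAC replicate 1 it was −0.87 and no longer passed (edgeR adjusted p = 0.0506). Without the atrial-rich WT sham replicate 3 it was −1.10 (edgeR adjusted p = 0.00548).

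The TAC responses of the pair were not shown to differ between genotypes. The difference of the 2 responses (cKO minus WT, the interaction term of the model) was 0.04 for Rpl3 (95% interval −0.26 to 0.35, edgeR adjusted p = 0.986) and −0.13 for Rpl3l (95% interval −0.83 to 0.57, edgeR adjusted p = 0.986). No gene of the 15206 passed this test with edgeR, a background of 0%, while 715 genes had an unadjusted p under 0.05 and DESeq2 called 3. Among the members 0 had an unadjusted p under 0.05, and DESeq2 called 0. The member median was −0.01, and without WT sham replicate 1 it was −0.20 with 81 of 87 members negative, again with 0 called.

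**Figure D2:**
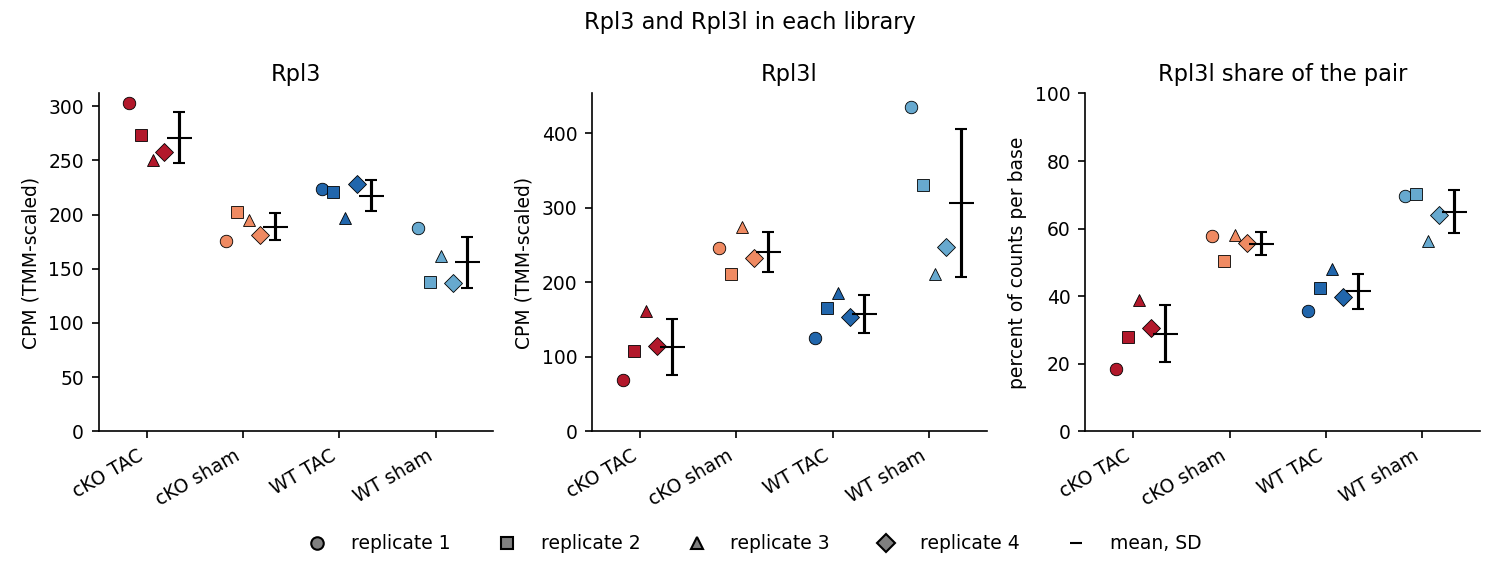
Rpl3 (left) and Rpl3l (middle) in TMM-scaled CPM, and Rpl3l as a percent of the pair's counts per base of transcript (right); points are libraries, horizontal bars are group means and whiskers are SDs (n = 4). In both genotypes the TAC libraries lie above the sham libraries for Rpl3 and below them for Rpl3l and its share.

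Set per base of transcript, the member of the pair with more counts differed between surgeries. Rpl3l made up 28.9 ± 8.4% of the pair in cKO TAC (18.4 to 38.8%), against 55.6 ± 3.5% in cKO sham (50.5 to 58.0%). In WT hearts it made up 41.5 ± 5.2% after TAC (35.6 to 48.1%), against 65.0 ± 6.4% after sham surgery (56.3 to 70.3%). Thus Rpl3l had more counts per base than Rpl3 in all 8 sham libraries and fewer in all 8 TAC libraries. Of the 100-base windows of Rpl3, 79.4% also occurred in other transcripts, and none of those of Rpl3l did. How shared reads were counted is not given, so which transcript was the more abundant is uncertain. The sum of both was 283 ± 13.5 CPM per kilobase in cKO TAC, 315 ± 19.6 in cKO sham, 276 ± 12.5 in WT TAC and 338 ± 83.8 in WT sham. These shares restate the values tested above.

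Markers of several cell types moved with the pair. Over all genes 14.2% were called higher and 12.4% lower with TAC in cKO, and 9.7% and 6.14% in WT. Of 13 cardiomyocyte markers, 1 was called higher (the fetal myosin Myh7) and 8 lower with TAC in cKO, and 1 higher and 3 lower in WT. Their summed level was 58020 to 78518 CPM in cKO TAC and 84462 to 97896 in cKO sham, and 74783 to 86606 in WT TAC and 89674 to 98600 in WT sham. Fibroblast markers were called higher in 7 of 10 (1 lower) in cKO and 6 of 10 in WT, macrophage markers in 7 and 6 of 11, and proliferation markers in 11 and 12 of 12. Endothelial markers were called higher in 4 and 3 of 10 and mural markers in 2 (1 lower) and 2 of 8. Median mural sums were 958 CPM in cKO TAC and 992 in cKO sham, and 1035 in WT TAC and 848 in WT sham. No atrial or erythrocyte marker was called. Only 2 of 10 lymphocyte markers were expressed enough to test, and 1 was higher in each genotype. Fibroblast sums were 4902 to 8801 CPM in cKO TAC and 2426 to 3771 in cKO sham, and 3488 to 5576 in WT TAC and 2176 to 3157 in WT sham. In bulk tissue fewer cells of a type and less RNA per cell cannot be told apart.

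The estimate for Rpl3l lay below those of the cardiomyocyte markers, a difference that was not tested. None of the 13 markers had a log2 change below that of Rpl3l in either comparison, their lowest being −0.89 in cKO and −0.66 in WT and their medians −0.54 and −0.26. Per 10000 CPM of these markers, Rpl3l stood at 15.9 ± 3.55 CPM in cKO TAC and 26.0 ± 1.47 in cKO sham. It stood at 19.2 ± 1.90 in WT TAC and 32.2 ± 9.10 in WT sham. For Rpl3, whose transcripts are found in all cell types, the part of fibroblasts and immune cells was not tested.

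The other 85 tested members lay close to no change with TAC. Over all 87, the median log2 change was −0.07 in cKO (20 positive, 67 negative) and −0.05 in WT (24 positive, 63 negative), against 0.00 and −0.01 over all genes. The large subunit members had medians of −0.06 and −0.04 and the small subunit members −0.08 and −0.11. In cKO 83 of the other 85 had estimates within 0.5 (log2) of 0, and in WT 81. Their median SE was 0.135, and the 95% interval lay within 1 log2 unit of 0 for 79 of them in cKO and 81 in WT. Of all 87, the interval lay within 0.5 for 60 in cKO and 55 in WT.

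**Figure D3:**
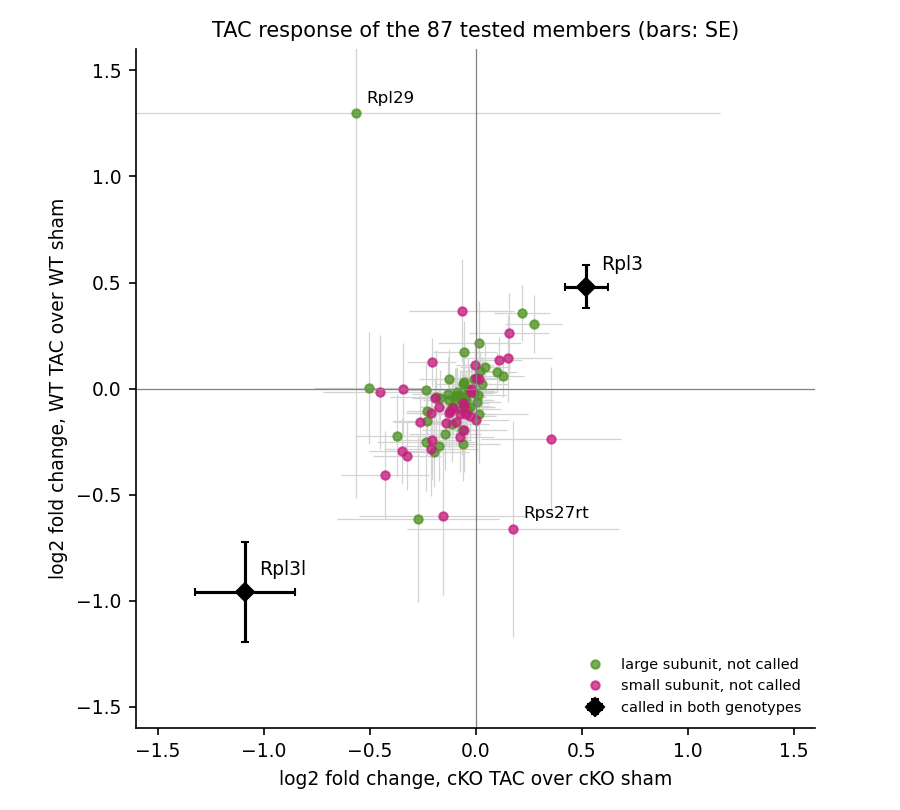
Log2 fold change with TAC in cKO (horizontal) and WT (vertical) of the 87 tested members, with SE bars; green and magenta points are large and small subunit members that passed in neither genotype. Rpl3 (0.52 and 0.48) and Rpl3l (−1.09 and −0.96) stand away from the cloud, and the points of Rpl29 and Rps27rt have wide bars; the Rpl29 bars run beyond the axes. The axes carry independent libraries.

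Several members fell between no change and a call. By unadjusted p under 0.05, 1 member was higher and 5 lower in cKO, and 3 higher and 1 lower in WT. These counts include the called Rpl3 and Rpl3l. The 1 higher in cKO was Rpl3, and the 1 lower in WT was Rpl3l. Rpl39, a short protein of the exit tunnel, averaged 93.5 ± 10.4 CPM in WT TAC and 72.9 ± 13.3 in WT sham (log2 0.36, edgeR adjusted p = 0.0706). It averaged 89.8 ± 10.2 CPM in cKO TAC and 77.2 ± 12.0 in cKO sham (log2 0.22, edgeR adjusted p = 0.234). Rpl13a, known as part of a complex that blocks translation of inflammatory mRNAs, had log2 changes of 0.27 in cKO and 0.30 in WT (edgeR adjusted p = 0.148 and 0.138).

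In cKO the lower side held Rps2, Rpl36, Rps9, Rps3 and Rpl8, whose cKO TAC libraries, like those of Rpl3l, all lay below the cKO sham libraries. That is 6 members without overlap on the lower side and 1, Rpl3, on the higher, against 13.8% and 15.5% of all genes. Rps2 averaged 517 ± 34.7 CPM in cKO TAC and 658 ± 115 in cKO sham (log2 −0.35, edgeR adjusted p = 0.105). Rpl36 averaged 120 ± 14.1 CPM in cKO TAC and 155 ± 11.4 in cKO sham (log2 −0.37, edgeR adjusted p = 0.178). In WT only Rpl3l and Rpl3 had no overlap, 1 lower and 1 higher, against 8.44% and 11% of all genes.

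WT sham replicate 1 enters the spread that all groups share in the model. Without it the cKO estimates stayed the same and their SEs were smaller (0.09 against 0.20 for Rpl36), and 7 members were called lower with TAC in cKO. Rps2, Rpl36, Rps13, Rps9, Rplp2 and Rpl14 then joined Rpl3l, with log2 changes of −0.37 to −0.19 and edgeR adjusted p from 0.00459 to 0.0498. Rps3 and Rpl8 were not called there either. Rpl3 remained the 1 member called higher. The background rose to 30% of 15454 genes. In WT the median of the members turned to 0.11, and 5 members were called higher and 1 lower, at a background of 13.4%. The higher ones were Rpl3 (0.58), Rpl38 (0.50), Rps12 (0.46), Rpl12 (0.27) and Rps26 (0.27). With all libraries the last 4 stood at 0.22, 0.14, 0.10 and 0.14.

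**Figure D4:**
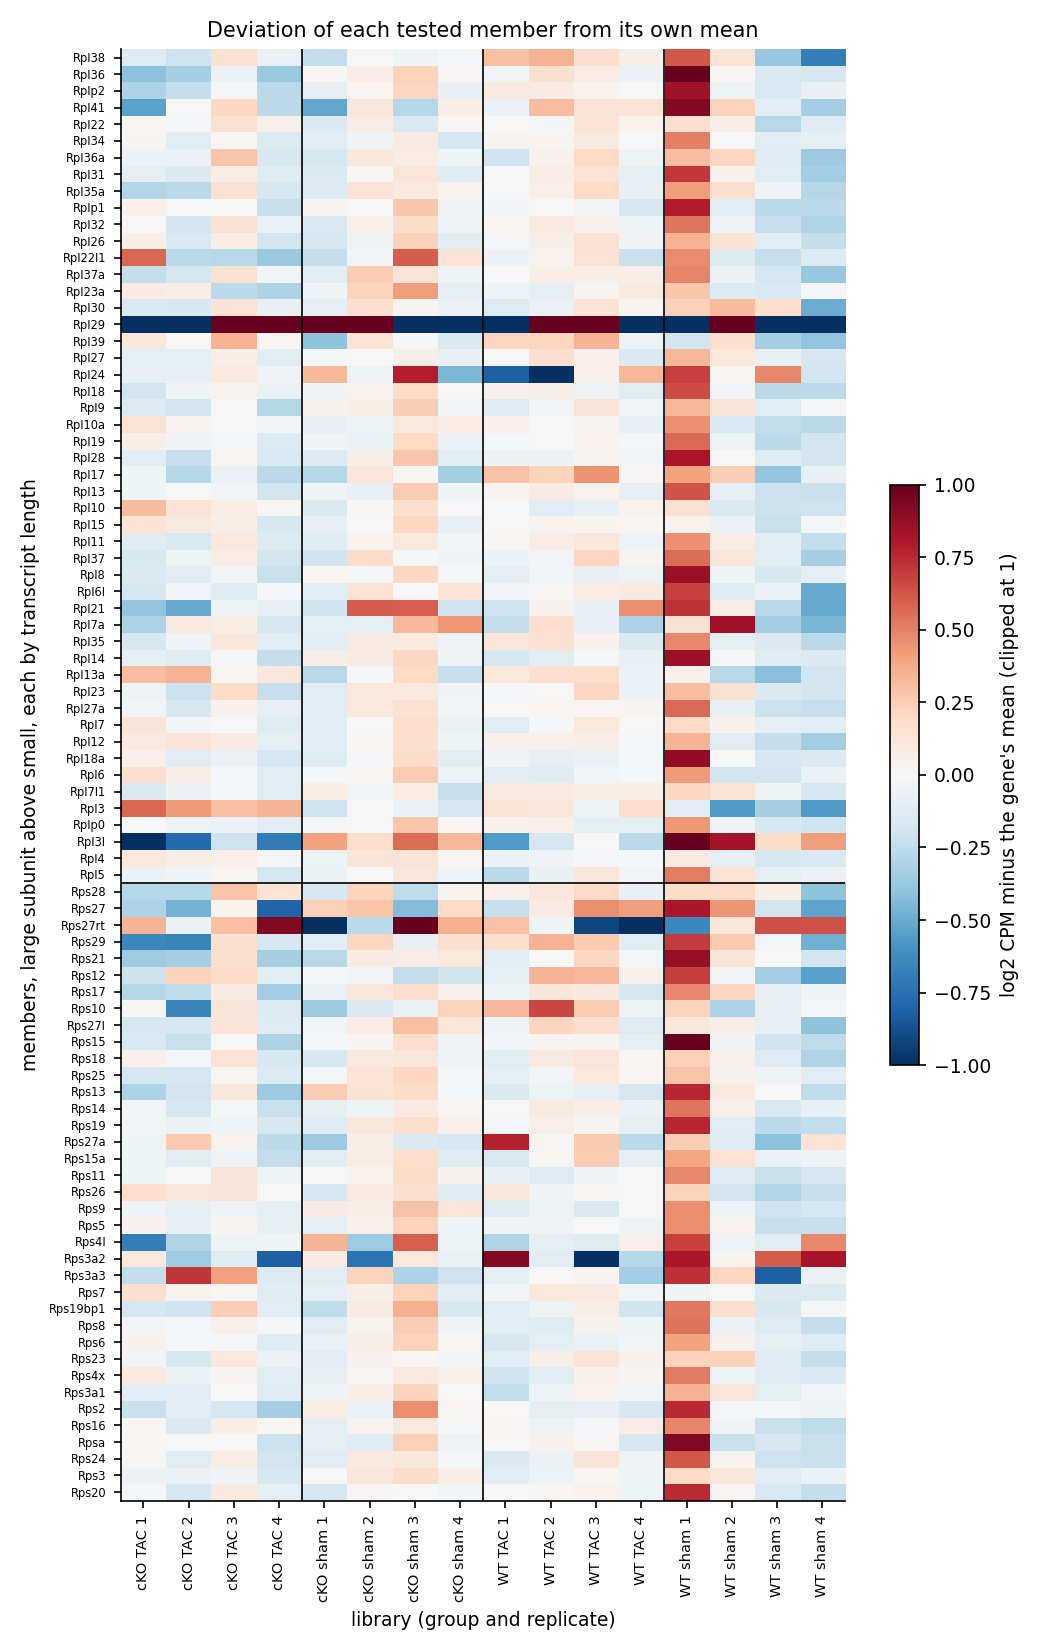
Log2 CPM of each tested member minus its mean over 16 libraries, clipped at 1, with large subunit members above small subunit members and each subunit ordered by transcript length from short to long; columns are libraries by group and replicate. WT sham replicate 1 is high in most rows, Rpl3 and Rpl3l differ between TAC and sham columns, and Rpl29 alternates between extremes within every group.

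The ribosomal stalk, which recruits elongation factors to the large subunit, did not pass in any of the 6 comparisons. Rplp0, Rplp1 and Rplp2 had log2 changes with TAC between −0.23 and −0.11 in cKO and between −0.17 and −0.05 in WT. Without WT sham replicate 1 all 3 WT values turned positive, at 0.11, 0.16 and 0.14, and none passed. Rplp0 averaged 619 ± 19.7 CPM in cKO TAC, 676 ± 67.7 in cKO sham, 632 ± 36.0 in WT TAC and 655 ± 143 in WT sham. Rps6, the small subunit protein phosphorylated by S6 kinase downstream of mTORC1, averaged 255 ± 11.8, 271 ± 23.7, 244 ± 10.3 and 272 ± 48.4 CPM in the same order of groups. Its TAC changes were −0.09 in cKO (95% interval −0.31 to 0.13) and −0.16 in WT (95% interval −0.38 to 0.06), the WT value being −0.03 without WT sham replicate 1.

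Rpl5 and Rpl11, which with 5S RNA bind Mdm2 and so stabilise p53 when ribosome assembly fails, lay between −0.07 and −0.06 in cKO and between −0.20 and −0.03 in WT. The X-linked members Rpl10, Rpl36a, Rpl39 and Rps4x lay between −0.03 and 0.22 in cKO and between −0.13 and 0.36 in WT. Rpl10a, Rpl38 and Rps25, studied for their role in the translation of selected mRNAs, lay between −0.19 and 0.03 in cKO and between −0.05 and 0.22 in WT. None of these was called with all libraries. Rpsa, which is also a laminin receptor, had log2 differences of −0.05 in cKO and −0.19 in WT, with SE 0.20 in each. Without WT sham replicate 1 the WT values of Rpsa (0.18), Rpl11 (0.13), Rps4x (0.05), Rpl36a (0.07) and Rps25 (0.04) turned positive.

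Shares of the other paralogs differed by a few points between groups, and none of these genes was called. Per base, Rpl22l1 made up 6.37% of its pair with Rpl22 in cKO TAC, 7.70% in cKO sham, 6.46% in WT TAC and 6.93% in WT sham. Rpl7l1, a paralog of Rpl7 known for a role in ribosome assembly, made up 11.0, 11.3, 12.1 and 11.7% in the same groups. Rps27l, a p53 target, made up 31.9, 28.6, 26.0 and 24.9% of its pair with Rps27. This share leaves out Rps27rt, a copy that shares most of the Rps27 sequence (below). The highest Rps27l shares were 37.7% in cKO TAC replicate 4 and 38.8% in cKO sham replicate 3. There the copy took 50.9 and 49.1% of Rps27 plus Rps27rt. The lowest were 20.7% in WT TAC replicate 4 and 19.0% in WT sham replicate 1, with the copy at 7.64 and 10.2%. The part of this split in the shares was not tested. Rps27l had a TAC change of −0.21 in cKO and 0.12 in WT, an interaction of −0.33 that did not pass (edgeR adjusted p = 0.946). Low or absent paralogs were left untested. Rpl37rt and Rps12l1 had 0 counts, Rpl10l, a testis paralog of Rpl10, had 1 count in all, and Rpl36al and Rpl32l had 66 and 70. Rpl39l, a testis paralog of Rpl39, had 21 counts in cKO TAC (1, 12, 1 and 7), 1 in cKO sham, 9 in WT TAC and 8 in WT sham.

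Comparing knockout with control asked how the family depended on cardiomyocyte Tfeb under each surgery. Under TAC 0 of 87 members passed in the edgeR fit and 0 with DESeq2, against 1.78% of all genes in the edgeR fit (0.598% higher and 1.18% lower). By unadjusted p under 0.05, 1 was higher and 1 lower. Rpl3 was higher in all 4 cKO TAC libraries than in any WT TAC library, and its log2 difference was 0.32 (SE 0.10, edgeR adjusted p = 0.105). Without WT sham replicate 1 the same 0.32 passed (edgeR adjusted p = 0.0473), at a background of 3.29%. Rpl17, a protein at the tunnel exit, averaged 56.5 ± 5.08 CPM in cKO TAC and 75.4 ± 9.35 in WT TAC, also without overlap (log2 −0.42, edgeR adjusted p = 0.145). Rplp2 and Rpl7l1 had no overlap on the lower side either, at −0.25 and −0.16. These 3 lower members and 1 higher one compare with 5.11% and 4.89% of all genes.

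Rpl3l under TAC differed by −0.47 between cKO and WT (95% interval −0.97 to 0.02, edgeR adjusted p = 0.313), and the libraries overlapped. Under sham surgery 0 of 87 passed in the edgeR fit and 0 with DESeq2, against 1.17% of all genes (0.618% higher and 0.552% lower), and 1 member, higher in cKO, had an unadjusted p under 0.05. Rpl3 differed by 0.28 (edgeR adjusted p = 0.198) and Rpl3l by −0.35 (edgeR adjusted p = 0.520). Leaving out WT sham replicate 1 gave 0.38 and −0.13 (edgeR adjusted p = 0.0565 and 0.846). No member was without overlap in this comparison, against 4% of all genes higher and 3.59% lower. The median log2 difference over members was −0.06 under TAC and −0.05 under sham surgery, against 0.00 and −0.01 over all genes. With WT sham replicate 1 left out the sham median was 0.12, and 77 of 87 members were positive.

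Averaged over both surgeries, Rpl3 was the 1 member called (1.15% of 87, against 9.06% of all genes, 4.21% higher and 4.85% lower). It was 1.23-fold higher in cKO than in WT (log2 0.30, SE 0.07, 95% interval 0.14 to 0.45, edgeR adjusted p = 0.0169). Without WT sham replicate 1 it stood at 0.35 (edgeR adjusted p = 0.00369). Rpl3l stood at −0.41 (95% interval −0.76 to −0.06, edgeR adjusted p = 0.135) and Rpl17 at −0.30 (edgeR adjusted p = 0.0774). Neither passed in the edgeR fit of all libraries. With DESeq2 Rpl17 passed at −0.31 (DESeq2 adjusted p = 0.0491), and with edgeR it passed at −0.37 without WT sham replicate 3 (edgeR adjusted p = 0.0184). Rpl3l passed at −0.52 without cKO TAC replicate 3 (edgeR adjusted p = 0.0374), and without WT sham replicate 1 it stood at −0.30 (edgeR adjusted p = 0.254). The member median, −0.06 with all libraries, was 0.04 without WT sham replicate 1. Fibroblast sums were also higher in cKO TAC (4902 to 8801 CPM) than in WT TAC (3488 to 5576 CPM), with overlap. In the averaged comparison 7 of 11 macrophage and 4 of 10 fibroblast markers were called higher, and 0 lower. Of 13 cardiomyocyte markers 1 was higher and 3 lower, and 3 of 6 atrial markers were lower. No endothelial, mural, lymphocyte, erythrocyte or proliferation marker was called. The part of these cell types in the Rpl3 difference was not tested.

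A pair of patterns within groups bears on how far 2 members can be read, both chosen after their values were seen. Rpl29, a basic protein at the surface of the large subunit, was present at either of 2 levels. In 9 libraries it had 0.583 to 1.77 CPM and in 7 it had 45.4 to 102.2 CPM, with none between. Low and high libraries numbered 2 and 2 in each of cKO TAC, cKO sham and WT TAC, and 3 and 1 in WT sham. Its TAC estimates, −0.57 in cKO and 1.30 in WT, had SE 1.72 and 1.81. Of its 100-base windows, 62% occurred in other annotated genes.

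Rps27 and Rps27rt, a retrotransposed copy, share much of their sequence. Of the 100-base windows of Rps27, 98.4% occurred in other annotated genes, Rps27rt among them, and of those of Rps27rt 89.5%, Rps27 among them. Each varied more within groups than their sum. The within-group SD of log2 CPM was 0.419 for Rps27 and 0.774 for Rps27rt, and 0.206 for the sum. The copy took between 7.64 and 50.9% of the sum. The sum averaged 91.9 CPM in cKO TAC, 110.2 in cKO sham, 107.0 in WT TAC and 118.7 in WT sham.

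**Figure D5:**
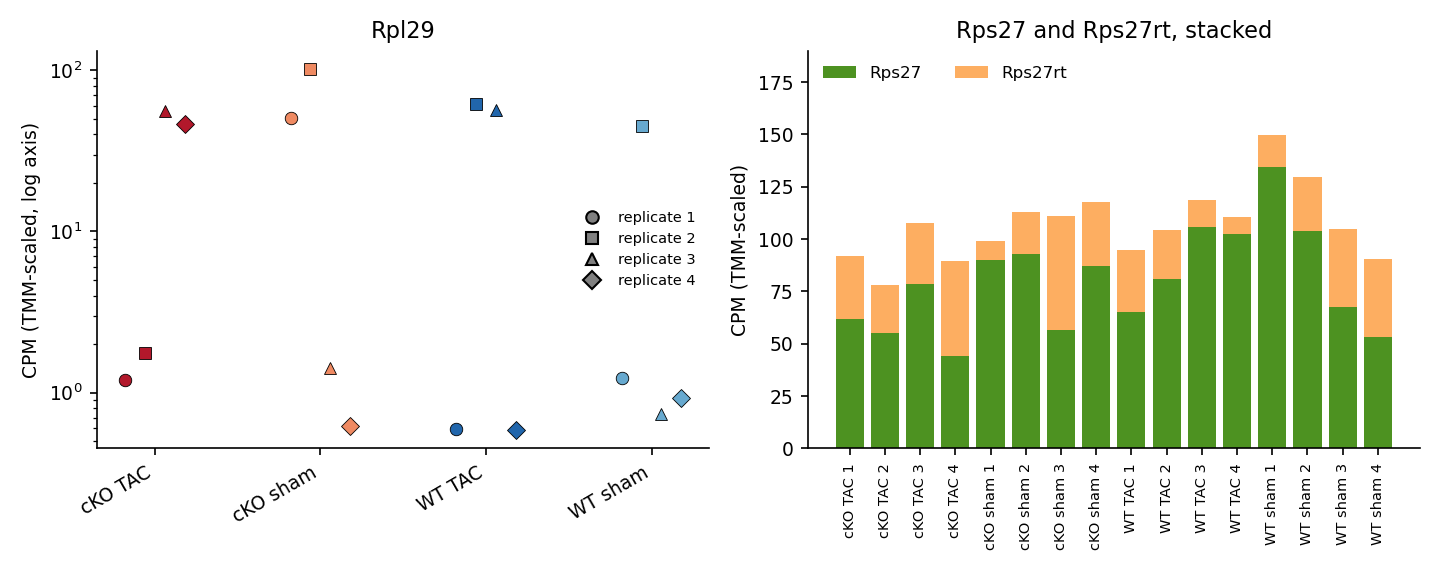
Left, Rpl29 in each library in TMM-scaled CPM on a log axis, and right, Rps27 and Rps27rt stacked in TMM-scaled CPM for each library. Rpl29 sits under 2 CPM or over 40 CPM in every group, and the split between Rps27 and Rps27rt varies from library to library more than the height of the stack.

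Calls among genes around the ribosome are to be read against 26.5% of all genes called with TAC in cKO and 15.8% in WT. Among 37 translation initiation genes, 3 were higher and 3 lower with TAC in cKO, and 2 higher and 1 lower in WT. Pabpc1, the poly(A) binding protein and itself a TOP mRNA, rose in both (log2 0.61 in cKO and 0.74 in WT, edgeR adjusted p = 0.00103 and 0.000401). So did Eif4a1, the initiation helicase (0.32 and 0.43), while Eif1, which guards start codon choice, fell in both (−0.49 and −0.38). Of 13 elongation genes, Eef1a1, the factor that delivers tRNA, rose in cKO (0.63, edgeR adjusted p = 0.00440) and none passed in WT. Among 20 other TOP mRNAs, a list that overlaps these, 3 were higher and 1 lower in cKO, and 1 higher in WT.

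Of 58 tested ribosome assembly genes, against 12.4% of all genes lower in cKO and 9.7% higher in WT, 2 were lower in cKO (Imp3 −0.39 and Emg1 −0.41, of the small subunit processome) and 2 were higher in WT. Those higher in WT were Gnl3, nucleostemin (0.60), and Rrp12 (0.80). For RNA polymerase I, which makes the large ribosomal RNA, 18 listed symbols, some of them old and new names of 1 gene, gave 15 tested genes. Of these, Polr1a and Taf1a were lower in both genotypes (−0.31 and −0.43 in cKO, −0.42 and −0.34 in WT). Over all genes 12.4% were lower in cKO and 6.14% in WT. Of 18 mTORC1 genes, 3 were lower in cKO, against 12.4% of all genes, and none passed in WT. The 3 were Tbc1d7, Tsc2 and Sesn1 (−0.39, −0.27 and −0.48), each known as an inhibitor of mTORC1 or part of one. Other inhibitors on the list, among them Tsc1 and Deptor, did not pass. In cKO against WT averaged over surgeries, 2 initiation genes and 2 other TOP mRNAs were higher, and 0 elongation genes passed. Of the assembly genes 2 were higher and 1 lower, and 1 polymerase I and 1 mTORC1 gene were higher. Over all genes 4.21% were higher and 4.85% lower. Under TAC 1 initiation gene was lower, and under sham surgery 1 assembly gene was higher, against 1.18% and 0.618% of all genes. No list was tested as a set, and no gene passed in the interaction with edgeR, as given above.

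The mitochondrial ribosome is built from other nuclear genes, and its members were set beside the cytosolic ones. Of 78 mitochondrial ribosomal protein genes, 52 were lower and 0 higher with TAC in cKO (median −0.40), and 3 were lower in WT (median −0.22). Over all genes 12.4% were called lower in cKO and 6.14% in WT. None of the 78 passed in the interaction. In cKO against WT 19 were lower averaged over both surgeries, 5 under TAC and 0 under sham surgery, and 0 were higher. Over all genes 4.85%, 1.18% and 0.552% were lower. With single libraries left out, these counts ran from 6 to 31 averaged over surgeries and from 0 to 30 under TAC. The count with TAC in cKO was 17 with library totals alone. It was 28 without cKO sham replicate 3, 32 without cKO TAC replicate 1, 34 without cKO TAC replicate 2, and 32 without the 2 libraries of most atrial transcripts. With Nppa left out of the atrial list it was 54, since cKO TAC replicate 1 ranked as atrial-rich through Nppa alone. The WT count was 11 with DESeq2, 9 without WT sham replicate 3 and 1 without WT sham replicate 1, WT TAC replicate 1 or WT TAC replicate 2, and 1 to 9 over all libraries left out in turn.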

How the data were processed

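Raw whole-number counts of reads per Ensembl gene were deposited by the authors, 1 column for each library. Per the submitters' processing notes the build was GRCm39 and the tools were featureCounts 2.0.6, HISAT2 2.0.5, fastp 0.22.0, SAMtools 1.21 and FastQC. Per the labels' protocols, RNA was taken up in TRIzol, cleaned on an Aurum column, and sequenced in paired ends on an Illumina platform from NEBNext Ultra libraries. Strandedness, annotation release and treatment of reads with several matches are not given in the sources used here, so overlapping and antisense genes cannot be told apart. Symbols, transcript lengths and shared windows came from GENCODE GRCm38 and start windows from RefSeq GRCm38.p6, so no GRCm39 coordinates are given. A symbol containing -ps was taken as a pseudogene.

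Counts were analysed with edgeR 4.0.16 in R 4.3.3. filterByExpr kept 15206 genes, and 1 robust quasi-likelihood model with a mean per group was fitted to 16 libraries (12 residual degrees of freedom, biological coefficient of variation 16.5%). P-values were adjusted by Benjamini-Hochberg over all tested genes in each of 6 comparisons, and under 0.05 passed. Each SE is the fold change divided by the root of F. The fit was tested on simulated data. The members, lists and tests were chosen with earlier results of these data known. Named members are a fixed list of paralogs and members of known role, the 5 with the smallest adjusted p and the extremes of fold change in each comparison, and the extremes of level; up to 4 genes were named per pathway list. Others are named as chosen after their values were seen or by their calls. The labels state no pairing, and replicate numbers were not used as pairs in the main fit. Of 24 same-numbered pairs across groups, 4 had deviations correlated above 0.1 (range −0.16 to 0.23). In 11 of them the own number correlated best among the 4 libraries of the other group. Alternatives were other scalings and filters, DESeq2 1.42.0, limma 3.58.1 voom, fits of only 2 groups, a replicate block, thinning to the shallowest total, leaving out mitochondrially encoded genes, the atrial-rich libraries or each library in turn. An atrial list without Nppa and removal of the length trend were added after seeing the data. One gene outside the family's symbols is not reported here.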

Additional observations from a re-analysis of the deposited data

Results flagged for a closer look

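In 13 of 164 groups of 4 libraries checked, 1 library lay far from the other 3 by Dixon's ratio at its 95% critical value, where chance gives about 1 in 20. WT sham replicate 1 stood apart for 7 genes. There Rpsa had 924 CPM (others 415 to 434), Rps2 1008 CPM (others 581 to 590), Rplp1 632 CPM (others 303 to 336) and Rplp2 287 CPM (others 145 to 155). Rps4x had 438 CPM (others 275 to 298), Rpl10a 245 CPM (others 148 to 161) and Rpl22l1 15.8 CPM (others 9.68 to 10.4) in the same library.

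The remaining 6 were spread over 5 libraries. In cKO TAC, Rpl22l1 had 17.0 CPM in replicate 1 (others 8.77 to 9.41), Rps27l 46.0 CPM in replicate 3 (others 37.2 to 38.4) and Rpsa 418.5 CPM in replicate 4 (others 484 to 493). In cKO sham replicate 3, Rplp0 had 777 CPM (others 637 to 648) and Rps27 56.5 CPM (others 87.3 to 92.8). In WT sham replicate 2, Rpl29 had 45.4 CPM (others 0.739 to 1.22).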

How the results depend on the processing

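Rpl3 kept its direction and its call with TAC under all 22 alternatives run in each genotype (log2 0.45 to 0.72 in cKO, adjusted p 2.31e-05 to 0.00951; 0.42 to 0.61 in WT, adjusted p 0.000229 to 0.0217), and averaged over surgeries under 29 (0.26 to 0.36, adjusted p 0.00251 to 0.0451). Rpl3l kept both in cKO (−1.31 to −0.91, adjusted p 2.57e-05 to 0.0162), and in WT (−1.10 to −0.74) lost its call once, as given above. With TAC in cKO the members called numbered 7 with library totals (median 0.12), 5 with only the compared groups and 7 with the length trend removed, against 2. With TAC in WT they numbered 4 with library totals and 4 with the length trend removed. With the length trend removed, cKO against WT gave 1 under TAC (Rpl3 at 0.37, adjusted p = 0.0430) and 2 averaged over surgeries (Rpl10 joining), and averaged over surgeries DESeq2 gave 2 (Rpl17 joining), as did both settings without 2 atrial-rich libraries.

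Leaving out each library in turn gave 2 to 8 called members with TAC in cKO, 1 to 6 with TAC in WT, 0 to 1 for cKO against WT under TAC, 0 to 0 under sham surgery and for the interaction, and 1 to 2 averaged over surgeries. Member medians then ranged from −0.12 to −0.03, −0.14 to 0.11, −0.10 to −0.05, −0.13 to 0.12, −0.20 to 0.053 (interaction) and −0.10 to 0.04 (averaged). The counts above 3 came without WT sham replicate 1. The cause was not tested. Shares of counts were 1.90, 1.91, 1.91 and 1.95% in cKO TAC, cKO sham, WT TAC and WT sham with mitochondrially encoded genes out of the total, and 1.30, 1.21 and 1.27% in the first 3 without the 5 highest genes; leaving out single libraries gave 1.55 to 1.59, 1.45 to 1.51, 1.53 to 1.54 and 1.33 to 1.58%.

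With the replicate block, called members numbered 2, 2, 0, 0, 0 and 1 as without it. Own-numbered libraries correlated best in 11 of 24 pairs, each set against 4 libraries. Without a filter Rpl39l was also called with TAC in cKO (log2 3.71, adjusted p = 0.0207). A fit of the compared groups alone was not run for the interaction and the averaged comparison, which use all 4 groups. Depth limits Rpl39l, Rpl24 and the untested members.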
